A study of Mus musculus with 44 samples.

Results

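The interferon gamma GTPases and chemokines examined here were 7 genes: the GTPases Igtp, Iigp1, Irgm1 and Gbp2, the chemokines Cxcl9 and Cxcl10, and the transcription factor Irf1. They were taken by gene symbol, with earlier results of these data known. They were read by 9 probe sets of the 20380 on the array that carried 1 gene symbol, and were 7 of 12393 genes. All 7 passed the filter on low values, which kept a gene when at least 1 array exceeded the median of all probe sets in its set of arrays and which 8721 genes passed. The study had hybridised total RNA of 43 lymphomas and 1 spleen, all from Eµ-myc mice, to Affymetrix mouse arrays, 1 array per sample. In these mice an enhancer of the immunoglobulin heavy chain locus drives a Myc transgene and B cell lymphomas arise, so that the spleen carried the transgene as well. The labels give no treatment, age or sex, leave unstated whether the lymphomas were of separate mice and whether the spleen was free of lymphoma, and do not tell which RNA came from frozen tissue and which from pellets of suspended cells, so the p-values measure the spread between these samples.

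Interferon gamma is secreted chiefly by activated T cells and natural killer cells, and its receptor, found on most cells, acts through the kinases Jak1 and Jak2. The immunity-related GTPases and guanylate-binding proteins it induces attack the vacuoles in which intracellular pathogens live, Cxcl9 and Cxcl10 draw in lymphocytes that carry the receptor Cxcr3, and Irf1 carries the response on to further genes. Promoters of its targets often hold gamma-activated sites (GAS) or interferon-stimulated response elements (ISRE), the latter bound by factors of the IRF family, Irf1 among them. Type I interferons act through ISRE too, and share many target genes with interferon gamma.

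The promoters of the genes that moved together are shown because most carried such an element close to the start of the transcript. The windows come from RefSeq on the GRCm38.p6 build, run 5′ to 3′ on the strand of the gene from 250 bases before the start to 50 after it, and have matches to GAS (TTCNNNGAA) or ISRE (GAAANNGAAA, searched on both strands) in capitals. Of the 7 genes, 6 were searched, and Iigp1 is not reported here. The windows are those of Igtp (chr11:58199306-58199605, plus strand), Irgm1 (chr11:48871371-48871670, minus strand), Gbp2 (chr3:142620413-142620712, plus strand), Cxcl10 (chr5:92348840-92349139, minus strand) and the first of the starts listed for Irf1 (chr11:53769764-53770063, plus strand). Irgm2 (chr11:58214727-58215026, plus strand), another immunity-related GTPase, is added because its level followed the 7 genes most closely, as described further on.
Igtp: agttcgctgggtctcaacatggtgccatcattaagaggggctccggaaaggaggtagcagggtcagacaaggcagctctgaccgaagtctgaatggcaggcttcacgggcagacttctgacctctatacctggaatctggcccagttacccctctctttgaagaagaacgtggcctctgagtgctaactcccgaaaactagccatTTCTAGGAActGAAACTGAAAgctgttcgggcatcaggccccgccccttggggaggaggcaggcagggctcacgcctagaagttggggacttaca
Irgm2: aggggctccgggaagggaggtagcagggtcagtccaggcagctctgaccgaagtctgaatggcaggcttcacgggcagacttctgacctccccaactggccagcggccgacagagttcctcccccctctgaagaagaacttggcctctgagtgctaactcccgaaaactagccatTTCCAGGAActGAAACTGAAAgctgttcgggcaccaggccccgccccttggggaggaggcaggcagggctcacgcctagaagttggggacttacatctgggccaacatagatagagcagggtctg
Irgm1: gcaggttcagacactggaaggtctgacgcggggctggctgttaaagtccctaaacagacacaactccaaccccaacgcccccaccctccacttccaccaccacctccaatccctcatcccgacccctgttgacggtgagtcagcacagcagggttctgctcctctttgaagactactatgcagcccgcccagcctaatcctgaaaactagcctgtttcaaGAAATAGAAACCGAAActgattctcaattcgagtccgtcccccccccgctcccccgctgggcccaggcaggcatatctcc
Gbp2: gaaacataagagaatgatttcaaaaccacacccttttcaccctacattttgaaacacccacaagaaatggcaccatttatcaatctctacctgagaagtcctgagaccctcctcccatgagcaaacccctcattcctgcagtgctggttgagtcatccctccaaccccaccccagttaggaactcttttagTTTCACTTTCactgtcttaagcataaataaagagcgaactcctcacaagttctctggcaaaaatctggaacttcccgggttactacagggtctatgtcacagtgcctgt
Cxcl10: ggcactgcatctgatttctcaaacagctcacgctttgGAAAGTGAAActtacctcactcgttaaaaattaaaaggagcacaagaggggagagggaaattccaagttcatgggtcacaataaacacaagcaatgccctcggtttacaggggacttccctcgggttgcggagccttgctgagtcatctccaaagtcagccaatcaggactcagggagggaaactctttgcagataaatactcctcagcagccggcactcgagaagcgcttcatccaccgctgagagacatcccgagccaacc
Irf1: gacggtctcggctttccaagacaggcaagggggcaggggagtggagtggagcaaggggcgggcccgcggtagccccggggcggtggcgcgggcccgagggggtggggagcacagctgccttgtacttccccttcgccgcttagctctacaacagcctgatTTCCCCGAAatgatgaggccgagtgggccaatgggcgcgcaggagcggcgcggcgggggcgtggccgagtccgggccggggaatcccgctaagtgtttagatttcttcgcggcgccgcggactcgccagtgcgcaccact
Igtp held a GAS match 45 to 37 bases before the start, followed by an ISRE match at 34 to 25 bases. Irgm2 had the same arrangement at 75 to 67 and at 64 to 55 bases. Irgm1 held a pair of ISRE matches that overlapped, at 30 to 21 and at 24 to 15 bases, and Gbp2 held 1 on the opposite strand at 59 to 50 bases. The ISRE match of Cxcl10 lay farther out, at 213 to 204 bases, and the GAS match of Irf1 at 90 to 82 bases. Neither the Cxcl9 window (chr5:92328030-92328329, minus strand) nor that of the other Irf1 start (chr11:53770223-53770522, plus strand) held either run of letters. Over all 32817 promoters of the same length, 8.29% held the GAS letters, 3.43% the ISRE letters and 11.3% at least 1 of them, against 2 of these 6 genes with GAS and 4 of 6 with ISRE. A match is a description of the letters and not of binding.

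The arrays fell into 2 sets by their overall level, and values are log2 levels within a set. Set 1 held 36 lymphomas, titled D34 to D117, and a median over all probe sets of 6.28. Set 2 held 7 lymphomas, titled D121 to D163, and the spleen, D168, at a median of 6.90. Comparisons between lymphomas used the level minus the mean of the lymphomas of the same set (set-centred). No 2 arrays held identical values, and the highest correlation between arrays was 0.991. Lymphomas D55, D59, D92 and D121 had the lowest mean levels of 8 B cell markers, such as Cd79a and Pax5, at -1.35, -1.44, -3.05 and -0.97 from their set mean, so results were also computed without them. The spleen had 11 of 11 red cell markers and 9 of 11 neutrophil markers higher than the lymphomas and a B cell marker mean of -1.27 from that of the lymphomas of its set.

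**Figure D1:**
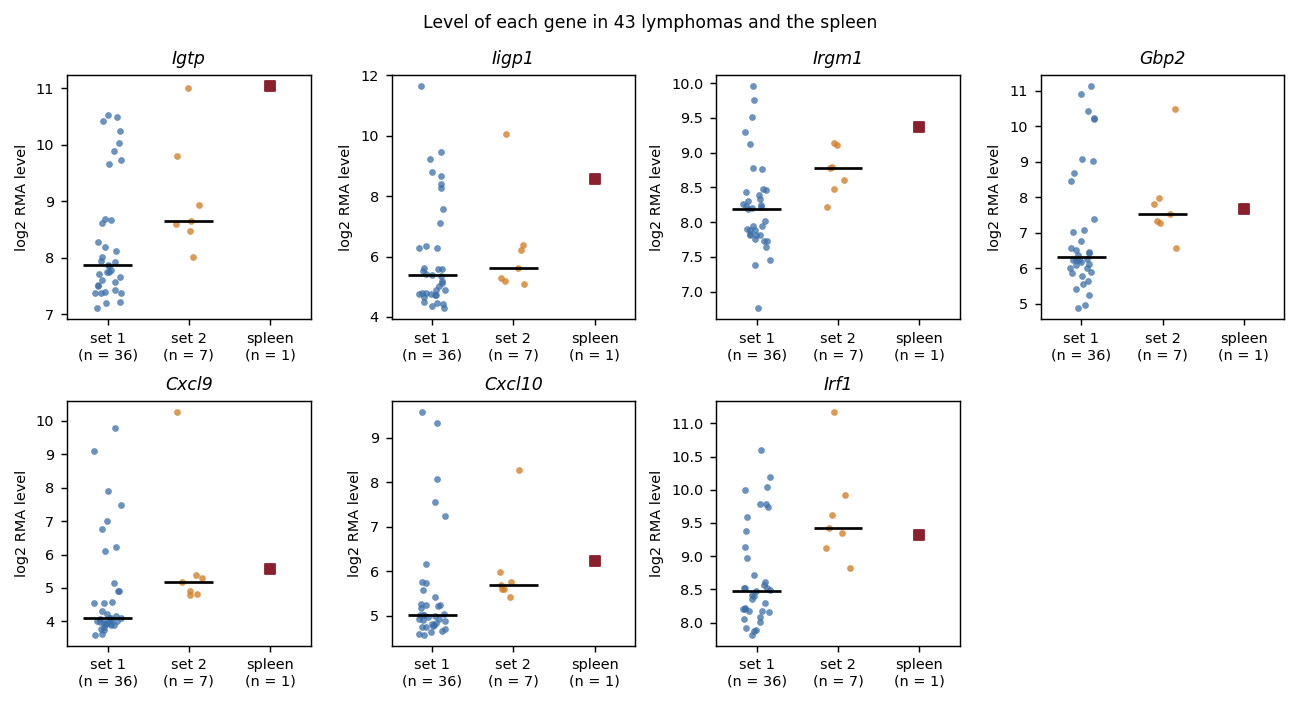
Log2 RMA level (y axes) of each gene in the 36 lymphomas of set 1, the 7 lymphomas of set 2 and the spleen; each point is 1 array and the bar is the median of the set. In set 2 lymphoma D163 lies far above the others for Iigp1, Gbp2, Cxcl9 and Cxcl10, and the spleen lies above the other arrays of its set for Igtp.

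Igtp, an immunity-related GTPase, ranged in set 1 from 7.10 (lymphoma D92) through a median of 7.86 to 10.52 (D89), and in set 2 from 8.02 (D133) through 8.64 to 11.00 (D163). The spleen, at 11.05, lay above the 7 lymphomas of its set, just above D163; set-centred, at 1.98, it lay below D89, D52 and D59 of set 1, at 2.23, 2.20 and 2.13. In every lymphoma the Igtp level exceeded the median of all probe sets. Iigp1, a GTPase of the same family, ranged in set 1 from 4.29 (D107) through 5.37 to 11.66 (D59) and in set 2 from 5.09 (D135) through 5.62 to 10.04 (D163), with 8.56 in the spleen. Most lymphomas were thus dim for Iigp1, 10 of 36 and 1 of 7 lying above the set median of all probe sets, and 1 of the 7 lymphomas of its set, D163, lay above the spleen. Irgm1, a regulator of the other GTPases of its family, ranged from 6.76 (D75) through 8.20 to 9.97 (D59) in set 1 and from 8.22 (D133) through 8.78 to 9.13 (D121) in set 2, with 9.37 in the spleen. All 43 lymphomas lay above the set median for Irgm1, and 0 of the 7 of its set exceeded the spleen.

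Gbp2, a guanylate-binding protein, ranged from 4.87 (D92) through 6.31 to 11.14 (D89) in set 1 and from 6.56 (D133) through 7.53 to 10.49 (D163) in set 2. The spleen, at 7.68, lay inside the range of its set, below 3 of the 7 lymphomas. The chemokine Cxcl9 ranged from 3.61 (D80) through 4.11 to 9.79 (D78) in set 1 and from 4.79 (D161) through 5.17 to 10.26 (D163) in set 2, with 5.58 in the spleen. Cxcl9 was high in few lymphomas: 6 of 36 and 1 of 7 lay above the set median of all probe sets. Cxcl10 ranged from 4.58 (D43) through 5.01 to 9.59 (D59) in set 1 and from 5.43 (D133) through 5.70 to 8.29 (D163) in set 2, with 6.23 in the spleen. Cxcl10 lay above the set median in 5 of 36 and 1 of 7 lymphomas. Irf1 ranged from 7.82 (D58) through 8.48 to 10.61 (D89) in set 1 and from 8.82 (D151) through 9.43 to 11.17 (D163) in set 2, with 9.31 in the spleen. All 43 lymphomas lay above the set median for Irf1, and the spleen was below 5 of the 7 lymphomas of its set.

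The set-centred SD over the 43 lymphomas was 1.05 for Igtp, 1.78 for Iigp1, 0.62 for Irgm1, 1.68 for Gbp2, 1.63 for Cxcl9, 1.22 for Cxcl10 and 0.76 for Irf1. The median SD of the 8721 genes was 0.33. Only 50 genes varied more than Iigp1, while 1570 varied more than Irgm1, the steadiest of the 7. The second probe sets of Iigp1 and Gbp2 followed those used, with a Pearson r of 0.986 and 0.992 over the 43 lymphomas.

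The same few lymphomas carried the high values. D46 was among the 6 highest set-centred levels of all 7 genes, D59 and D163 of 6, and D52 and D89 of 5. The high lymphomas nevertheless differed in which genes were highest. D78 had the highest set-centred Cxcl9 of the 43, 4.89 above its set mean, and Cxcl10 at 3.84, with Iigp1 at 3.45, Gbp2 at 3.19, Irf1 at 0.66, Igtp at 0.32 and Irgm1 at 0.08. D89 had the highest Igtp, Gbp2 and Irf1, at 2.23, 4.10 and 1.89, with Iigp1 at 3.20, Cxcl9 at 1.32, Irgm1 at 0.55 and Cxcl10 at 0.22. Iigp1 and Gbp2 were thus high in both lymphomas, Cxcl10 in D78 and Igtp in D89. D59 had the highest Iigp1, Irgm1 and Cxcl10, at 5.63, 1.74 and 4.08. D59 also had the highest macrophage, stroma and type I interferon scores of set 1, at 3.23, 4.65 and 3.35 above the mean, and a B cell score of -1.44; the part of these in its values was not tested. At the other end, D35 and D43 were among the 6 lowest for 4 genes each.

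Over the 21 pairs of the 7 genes, Pearson r over the 43 set-centred lymphomas ran from 0.620 (Irgm1 with Cxcl10) to 0.937 (Iigp1 with Cxcl9), with a median of 0.814, against a median of 0.0038 over all gene pairs. Within set 1 the median was 0.822 and within set 2 0.903. These r are descriptions over arrays that share their lymphomas, and those of Igtp, Gbp2 and Irf1 include the distance between the groups of levels described below. Cxcl9 with Cxcl10 (0.936) and Igtp with Irf1 (0.933) were further close pairs, and the 6 pairs with Irgm1 reached at most 0.814. Outside the 7 genes, the mean r with them was highest for Irgm2 at 0.873, Ms4a6c at 0.848, the granzyme B inhibitor Serpinb9 at 0.843, the nucleic acid sensor Zbp1 at 0.839 and the guanylate-binding protein Gbp6 at 0.833. Cd274, the checkpoint ligand PD-L1, followed at 0.827, then the kinase Map3k8 at 0.823, the chemokine Ccl5 at 0.818, Tapbp of the peptide-loading complex at 0.818 and Gbp8 at 0.817. The nearest genes of each member differed. For Igtp they were Irf1, then Ccl5 at 0.930 and Gzmb, granzyme B, at 0.925. For Cxcl10 they were Cxcl9, then the complement factor Cfb at 0.933 and the RNA sensor Ifih1 at 0.932. For Cxcl9 they were Iigp1, Cxcl10 and Slamf8 at 0.935. For Irf1 they were Igtp, then Gbp2 at 0.907 and Bcl3, a partner of NF-kB, at 0.907. Irgm2 came first for Irgm1 (0.814) and Gbp2 (0.931) and second for Iigp1 (0.930), with Rcn3 at 0.793 the third for Irgm1 and Ms4a6c at 0.927 the second for Gbp2.

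**Figure D2:**
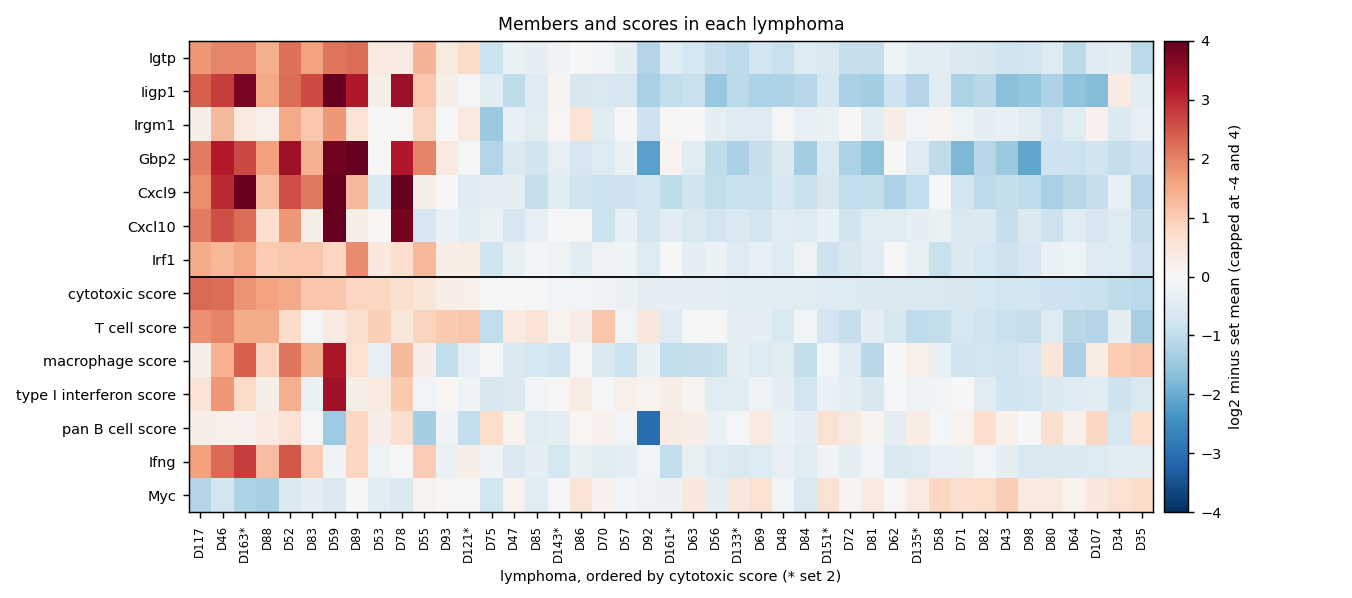
Set-centred log2 levels of the 7 genes and, below the line, of 5 marker scores, Ifng and Myc in the 43 lymphomas, ordered from left to right by falling cytotoxic score (asterisk, set 2). The 7 genes are red mainly in the 13 lymphomas at the left, where the chemokines of D78 and D59 stand out and Myc is pale or blue.

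To relate the genes to cytotoxic cells, a cytotoxic score was taken as the mean set-centred level of 16 kept genes of a list of 20 markers of natural killer and cytotoxic T cells, among them Gzma, Gzmb, Nkg7, Klrd1, Eomes and Ccl5. One SD of the score was 0.882 log2 units. All 7 genes rose with the score. In limma, with the set as a covariate and Benjamini-Hochberg adjustment over all genes, the slope was 0.95 ± 0.07 log2 per SD (SE, n = 43) for Igtp (adjusted p = 7.0e-14), 1.47 ± 0.15 for Iigp1, 1.39 ± 0.14 for Gbp2 and 0.40 ± 0.07 for Irgm1 (adjusted p = 1.8e-05). The chemokines had slopes of 1.31 ± 0.15 (Cxcl9) and 0.92 ± 0.12 (Cxcl10), and Irf1 had 0.67 ± 0.05 (adjusted p = 4.9e-13). These counts stand beside a high background, since 48.6% of 8705 genes outside the list passed the threshold of 0.05, 19.0% of the 8705 upward, with a median slope of -0.03. The median slope of the 7 was 0.95. Leaving out each lymphoma in turn changed none of these 7 calls, and the slope of Irgm1 then ran from 0.36 to 0.43. The difference of the slopes between the sets passed the threshold for 0 of 7 genes in limma, where 0.344% of all genes did and 0 of 7 had an unadjusted p under 0.05, Cxcl9 coming nearest at 0.0682.

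**Figure D3:**
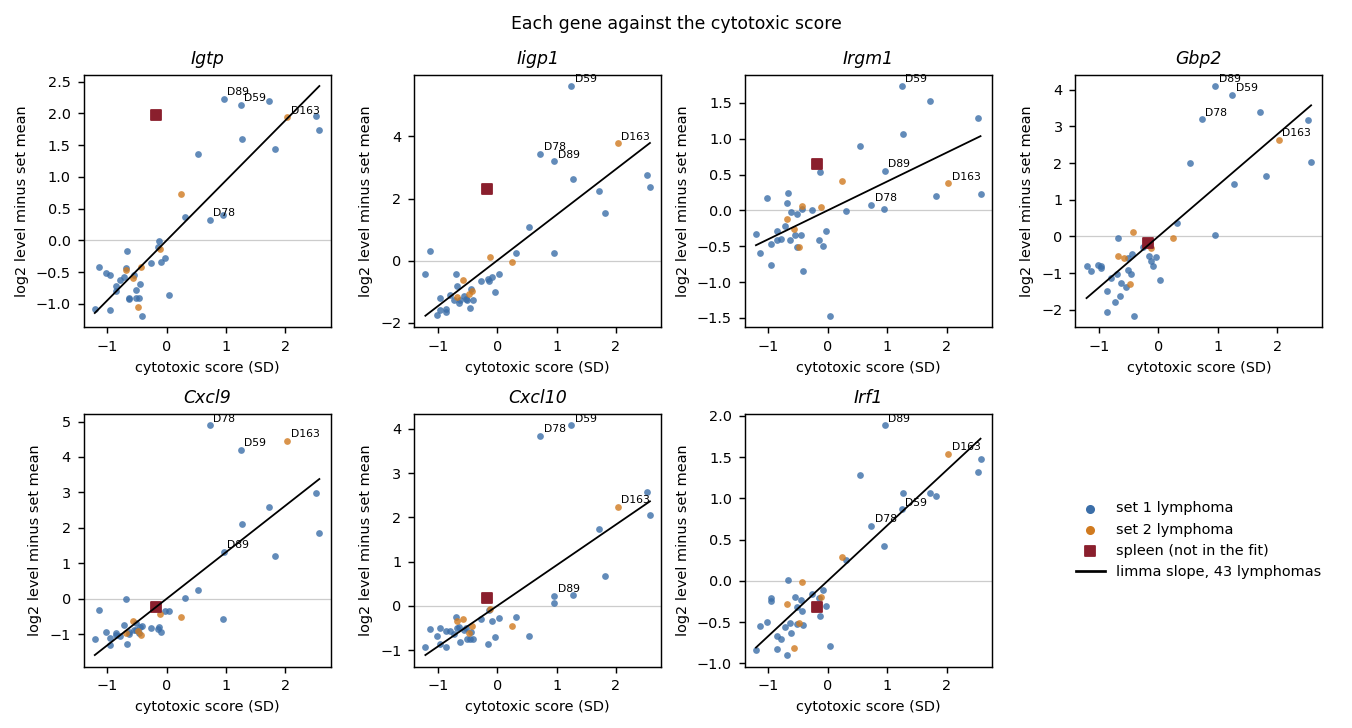
Set-centred log2 level of each gene (y axes) against the cytotoxic score in units of its SD over the lymphomas (x axes); blue points are the 36 set 1 lymphomas, orange points the 7 set 2 lymphomas, the square is the spleen, left out of the fit, and the line is the slope in limma. Points of D78 and D59 lie above the line for Cxcl9 and Cxcl10. Among the orange points only D163 is high for Iigp1, Gbp2, Cxcl9 and Cxcl10.

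Igtp and Irf1 each fell into separate groups of lymphomas, as did Gbp2. A 2-component mixture placed 13 lymphomas in the upper group of Igtp, and the same 13 in that of Irf1. They were also the 13 with the highest cytotoxic score, from 0.24 to 2.57 SD, and the 30 others ran from -1.21 to 0.03 SD. The groups of Igtp levels thus did not overlap in cytotoxic score. The upper group of Gbp2 held 10 lymphomas, all 10 among those 13. The groups were cut on the level of the gene itself, which narrows the range within them and limits r there. Pearson r of Igtp with the score was 0.362 in the lower 30 (permutation p = 0.0507) and 0.627 in the upper 13 (permutation p = 0.0347), both 0.0848 after adjustment over the 6 such tests. For Irf1 r was 0.338 and 0.595, with an adjusted permutation p of 0.0848 for each, and Spearman's rho 0.392 and 0.659 with 0.0701 for each. For Igtp rho was 0.301 and 0.588, with adjusted permutation p of 0.128 and 0.0701. For Gbp2 r was 0.484 in the lower 33 (adjusted permutation p = 0.0265, rho 0.464, 0.325 without the 2 lymphomas farthest from the median score) and -0.153 in the upper 10 (adjusted permutation p = 0.670, rho -0.224). The other 4 genes were not separated in this way. Over the 43 lymphomas r was 0.830 for Iigp1, 0.805 for Cxcl9 and 0.756 for Cxcl10 (adjusted permutation p = 9.3e-05 for each, from 1e-05, the smallest that 100000 permutations can give), and 0.650 for Irgm1 (adjusted permutation p = 0.000205). Spearman's rho was 0.748, 0.782, 0.692 and 0.587, with an adjusted permutation p of at most 0.000409. Of all genes, 48.5% passed by r. Without D117 and D46, the lymphomas farthest from the median score, r was 0.831, 0.798, 0.691 and 0.638 in the same order. Within set 2 alone r was 0.983 for Iigp1, 0.965 for Cxcl9, 0.938 for Cxcl10 and 0.697 for Irgm1. Spearman's rho there was 0.857, 0.714, 0.357 and 0.786 in the same order, and D163 had the highest cytotoxic score of that set. By exact tests over the 5040 orders of 7 lymphomas no gene of the whole table passed after adjustment.

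Among the cytotoxic genes themselves, the mean r with the 7 genes was highest for Ccl5 at 0.818, Gzmb at 0.801, the granule protein gene Nkg7 at 0.791 and the receptor genes Klrc1 at 0.787 and Klrk1 at 0.776. It was -0.548 for Prf1, perforin, whose probe set varied little (SD 0.15) and lay above the set median in 1 of 43 lymphomas. Klrc1 and Klrk1 were dim too, above the set median in 2 and 1 lymphomas of set 1 and in 0 of set 2. Klrc1, Klrk1 and Prf1 passed the filter on low values only through those lymphomas, so their r are descriptions. The cytotoxic score was set against 8 other scores and Myc. Its r with the T cell score, the mean of 15 genes such as Cd3e, was 0.843 (rho 0.856, adjusted permutation p = 3.0e-05). Its r was 0.599 with the macrophage score of 16 genes (rho 0.362, adjusted permutation p = 0.00027), 0.600 with the dendritic cell score of 6 genes (rho 0.754, adjusted permutation p = 0.000225), and 0.684 with the type I interferon score of 23 genes (rho 0.725, adjusted permutation p = 3.0e-05). With Myc r was -0.795 (rho -0.766, adjusted permutation p = 3.0e-05), and with the B cell score it was 0.002 (adjusted permutation p = 0.989). The neutrophil, red cell and stroma scores had r of 0.226, 0.249 and 0.066, with adjusted permutation p of 0.192, 0.166 and 0.780. Adjustment was over these 9 relations. Without D117 and D46 r was 0.789 (T cell), 0.621 (macrophage) and -0.762 (Myc), and within the sets 0.837 and 0.887, 0.558 and 0.839, and -0.776 and -0.911. The mean level of the 16 cytotoxic genes ran from 5.12 to 8.45 in set 1 and from 6.12 to 8.51 in set 2. That of the macrophage genes ran from 5.26 to 9.80 and from 6.11 to 9.47. In bulk RNA fewer cells of a type and less RNA per cell cannot be told apart, and which cells held the transcripts was not measured.

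With the type I interferon score as predictor, 7 of 7 genes rose (43.1% of all genes passed, 17.2% upward). With the macrophage score 7 of 7 rose as well (45.2%, 17.8% upward). Cxcl10 had a slope of 1.04 ± 0.10 on the type I score and Igtp 0.74 ± 0.12, and on the macrophage score Iigp1 had 1.47 ± 0.15 and Cxcl9 1.32 ± 0.15. Igtp and Irf1 had 0.75 ± 0.11 and 0.45 ± 0.09 on the macrophage score. With Myc as predictor 6 of 7 fell (43.3% of all genes passed, 16.9% downward), from -0.53 ± 0.08 for Irf1 to -1.09 ± 0.21 for Iigp1, and Irgm1 had -0.20 ± 0.09 (adjusted p = 0.0719). With Myc beside the cytotoxic score the 7 cytotoxic slopes all passed upward (7.55% of all genes), Igtp having 1.19 and Irf1 0.68, and with the T cell score beside it all 7 passed too (11.4% of all genes upward), Igtp having 0.98.

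A joint fit held the cytotoxic, type I interferon and macrophage scores together, and the genes that passed differed between the scores. Slopes were not tested between genes. On the cytotoxic score 6 of 7 rose (29.1% of all genes passed, 12.2% upward): Gbp2 by 0.83 ± 0.16 log2 per SD, Iigp1 by 0.77 ± 0.14, Igtp by 0.76 ± 0.09, Cxcl9 by 0.68 ± 0.15, Irf1 by 0.65 ± 0.08 and Cxcl10 by 0.31 ± 0.12 (adjusted p = 0.0397 in limma). Irgm1 had 0.14 ± 0.09 (adjusted p = 0.241). On the type I score 1 of 7 rose, Cxcl10 by 0.64 ± 0.12 (adjusted p = 0.000623; 7.16% of all genes passed, 5.14% upward). Irgm1 had 0.29 ± 0.10 there (adjusted p = 0.0514), and Igtp and Irf1 had 0.03 ± 0.10 and -0.04 ± 0.08. Gbp2, Iigp1 and Cxcl9 had 0.39 ± 0.18, 0.35 ± 0.15 and 0.31 ± 0.16 and were not called (adjusted p = 0.194, 0.167 and 0.280 in limma). On the macrophage score 4 of 7 rose (11.9%, 6.13% upward): Iigp1 by 0.78 ± 0.14, Cxcl9 by 0.70 ± 0.15, Gbp2 by 0.49 ± 0.16 and Igtp by 0.27 ± 0.09. Irf1 had 0.09 ± 0.08. The difference of the cytotoxic and type I slopes passed the threshold for 2 of 7, Igtp with 0.73 ± 0.16 (95% interval 0.40 to 1.05, adjusted p = 0.00138) and Irf1 with 0.69 ± 0.14 (0.41 to 0.97, adjusted p = 0.000446), beside 16.3% of all genes, 6.96% upward. For Cxcl10 it was -0.33 ± 0.21 (-0.75 to 0.09) and for Irgm1 -0.15 ± 0.16 (-0.47 to 0.16), both short of the threshold. Gbp2, Iigp1 and Cxcl9, at 0.45 ± 0.29, 0.42 ± 0.25 and 0.37 ± 0.27, were short of it too. This difference was added after the data had been seen. The Cxcl10 calls were lost on leaving out 4 lymphomas: without D55, D59, D92 and D121 its type I slope was 0.49 (adjusted p = 0.140) and its cytotoxic slope 0.33 (adjusted p = 0.106), and in that fit 15 genes in all passed on the type I score.

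**Figure D4:**
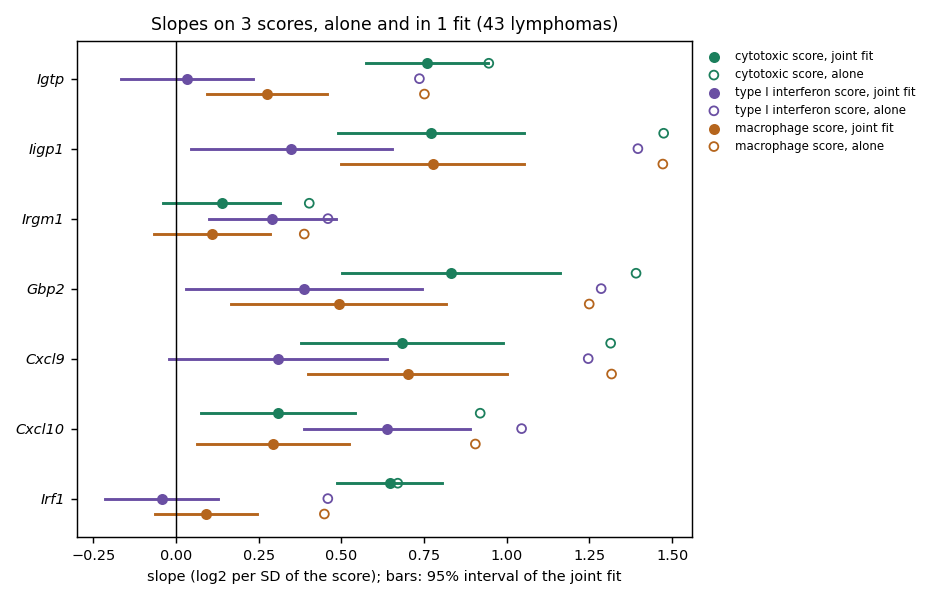
Slopes of the 7 genes on the cytotoxic, type I interferon and macrophage scores in log2 per SD of each score, over 43 lymphomas; filled points with 95% intervals are from the fit that holds all 3 scores, open circles from fits with 1 score. Igtp and Irf1 keep high cytotoxic slopes with type I slopes near 0, and Cxcl10 has its highest joint slope on the type I score.

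Of 16 genes on a list for the interferon gamma pathway, which also held type I genes such as the receptor chain Ifnar2, 15 were analysed here. On the cytotoxic score 11 of 15 rose and 0 fell, beside 19.0% of all genes that rose, with a median slope of 0.26 against -0.03 over all genes. Ifng, which encodes the ligand, was dim: it ran from 3.01 through 3.30 to 6.11 in set 1, where 0 of 36 lymphomas lay above the set median of all probe sets, and from 3.68 through 4.12 to 7.43 in set 2, where 1 of 7, D163, lay above it. Ifng thus passed the filter on low values through 1 lymphoma. It was highest in D163, D52 and D46, at 2.76, 2.49 and 2.26 above the set mean, and was at -0.16 in D59 and -0.01 in D78, the lymphomas with the highest Cxcl10. Its slope was 0.75 ± 0.07, and its mean r with the 7 genes was 0.705. Both are descriptions, since Ifng was kept only through D163, which also had the highest cytotoxic score of set 2. Of the receptor chains, Ifngr1 rose by 0.23 ± 0.06 and Ifngr2 had 0.04 ± 0.08 (adjusted p = 0.654). The kinases Jak2 and Jak1 rose by 0.64 ± 0.13 and 0.20 ± 0.07. The transcription factors Irf9, Irf8 and Stat2 rose by 0.50 ± 0.06, 0.45 ± 0.13 and 0.14 ± 0.05. The feedback inhibitors Socs3 and Socs1 rose by 0.87 ± 0.10 and 0.26 ± 0.04, and the type I receptor chain Ifnar2 by 0.32 ± 0.10. Socs1 exceeded the set median of all probe sets in 1 lymphoma of set 1 and 1 of set 2. It passed the filter only through them, so its slope is a description as well. The counts of this list include Ifng and Socs1. Cxcr3, the receptor of both chemokines, rose by 0.86 ± 0.06 and had the highest mean r of the list with the 7 genes, 0.767. In the joint fit 7 of 15 rose with the cytotoxic score, beside 12.2% of all genes. On the type I score Irf9, Stat2 and Ifngr2 rose. Ifng, dim in most lymphomas, fell by 0.31 ± 0.10 there, which is a description too, since it was kept only through D163.

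Related genes moved alike on the cytotoxic score, where of all genes 19.0% rose and 29.7% fell. Of 17 other GTPases 6 were on the array, and all 6 rose, with a median slope of 0.71: Gbp8 by 1.09 ± 0.12, Irgm2 by 0.82 ± 0.09, Ifi47 by 0.60 ± 0.07 and Gbp6 by 0.58 ± 0.07, as well as Gbp7 and Gbp3. Of 21 kept interferon gamma targets outside the GTPases, 19 rose and 0 fell, with a median of 0.40. They included the peptide transporter subunits Tap1, by 0.54 ± 0.04, and Tap2, by 0.40 ± 0.03, the immunoproteasome subunit Psmb9, by 0.51 ± 0.04, and Tapbp, by 0.44 ± 0.04. Lap3 and Wars were the 2 not called, at -0.06 ± 0.06 and -0.06 ± 0.03, and were named after their values had been seen. Some genes of these lists were dim. Ido1 exceeded the set median of all probe sets in 1 lymphoma, of set 2, and Ubd in 1, of set 1. Gbp6 exceeded it in 2 lymphomas of set 1 and 0 of set 2, and Gbp8 in 3 of set 1 and 1 of set 2. These genes passed the filter on low values only through those lymphomas, so their slopes are descriptions. The part of the filter in the counts of the lists was not tested. Of 23 type I interferon genes 19 rose on the cytotoxic score alone, Zbp1 by 1.04 ± 0.07, Oasl2 by 0.80 ± 0.12, Ifih1 by 0.69 ± 0.09 and Irf7 by 0.63 ± 0.09. In the joint fit, 2 of these 23 rose and 6 fell with the cytotoxic score, against 4 of 6 GTPases and 16 of 21 interferon gamma targets that rose and 0 that fell; of all genes 12.2% rose and 16.9% fell there, and the type I score was built from those 23 genes.

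The spleen gives the level in a tissue of the same genotype. Against the lymphomas, 0 of 7 genes passed the threshold in limma, and 0 of 7 had an unadjusted p under 0.05, beside 13.4% of all genes. Of all genes 663 were higher and 505 lower; with equal column medians these were 600 and 775, and the median difference over all genes moved from -0.16 to -0.29. Igtp had a difference of 1.98 ± 1.11 log2 (SE, 1 spleen against 7 lymphomas of its set, spread of 43; 95% interval -0.25 to 4.22, adjusted p = 0.235). Iigp1 had 2.30 ± 1.87, Irgm1 0.64 ± 0.66 and Cxcl10 0.18 ± 1.28, while Gbp2, Cxcl9 and Irf1 had -0.18 ± 1.76, -0.23 ± 1.71 and -0.32 ± 0.80. With array weights Igtp passed, at 2.30 ± 0.84 (adjusted p = 0.0353), where 28.1% of all genes did. Several differences moved with D163: without it Gbp2 had 0.26, Cxcl9 0.52, Cxcl10 0.55 and Irf1 -0.06. Under quantile normalisation Cxcl10 had -0.23, without the set covariate Irf1 had 0.45, and the second probe set of Gbp2 had 0.28. The cytotoxic score of the spleen was -0.16 log2 from its set mean and its type I and macrophage scores were 1.67 and 2.43 above it. Of the pathway genes Ifnar2 was higher in the spleen by 2.19 ± 0.75 (adjusted p = 0.0431), and 0 of the 6 other GTPases passed in limma or had an unadjusted p under 0.05, Gbp7 having 2.59 ± 1.38 and Gbp3 1.78 ± 1.12. Of the interferon gamma targets Psmb10 was lower, by -1.27 ± 0.30 (adjusted p = 0.00223), and Wars, Psmb8 and Psmb9 had -0.58 ± 0.20, -0.96 ± 0.45 and -0.85 ± 0.61. Of 23 type I interferon genes 4 were higher: Rsad2 by 7.0 ± 1.25, Zbp1 by 4.68 ± 1.18, Cmpk2 by 3.18 ± 1.04 and Oas3 by 1.77 ± 0.57.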

How the data were processed

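Per the labels, the authors deposited log2 expression values per probe set, made with RMA in the affy package according to the submitters' processing notes, with no versions given. The 7 genes and the marker lists were chosen with earlier results of these data known. Of 22690 probe sets, 64 were controls, 691 carried several symbols and 1555 none. For each gene the probe set with the highest mean over all arrays was used. All sample columns were mapped. Arrays have no read depth, so their number limits the precision.

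The sets (titles up to D117 and above) were taken from the shift in overall level; the labels do not state separate RMA runs. Scores are means of set-centred levels of a list's kept genes, divided by their SD in regressions. Fits used limma 3.58.1 in R 4.3.3 (eBayes with intensity trend, set as covariate, two-sided, Benjamini-Hochberg over all kept genes, threshold 0.05). The spleen is 1 array, so its spread was that of the lymphomas. Permutations were 100000, within sets and two-sided. A gene was treated as falling into groups when a 2-component mixture (mclust 6.1.1) gained over 10 in BIC with an Ashman D above 3. Named were the 7 genes; pathway genes that passed a test, plus Ifng, Ifngr1, Ifngr2 and Socs1 whatever their result (another gene of this rule is not reported here); 4 genes of each related list with the largest statistic; 5 cytotoxic genes; and the 3 or 10 genes with the highest r. Alternatives concerned the set, filter, probe set, scaling, eBayes, array weights, covariates, score and lymphomas used. On simulated data with 8721 genes, 78% of spleen differences of 2 log2 units and 26% of 1 unit were called, as were 100% of cytotoxic slopes and 82% of joint slopes of 1 residual SD. The changed genes were drawn from all 8721, with a median SD of 0.33. The 7 genes had SDs from 0.62 to 1.78, so the spleen shares do not apply to them.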

Additional observations from a re-analysis of the deposited data

Results flagged for a closer look

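Among the 7 lymphomas of set 2, D163 stood far from the others for 4 of the 7 genes. Its level was 10.04 for Iigp1, against 6.38 in the next highest lymphoma, and 10.49 for Gbp2, against 7.98. For Cxcl9 it was 10.26, against 5.38, and for Cxcl10 8.29, against 5.98. The gap to the next lymphoma was 0.740, 0.640, 0.892 and 0.807 of the range of the 7, above Dixon's critical value for 7 values. Chance alone flags about 1 in 20 groups, and these 4 flags come from 1 lymphoma and are not independent. D163 also had the highest macrophage score of set 2, 2.39 above the mean, the highest Ifng of all 43, and the highest cytotoxic score of set 2. Their part in its levels was not tested.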

How the results depend on the processing

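Leaving out each lymphoma in turn left every cytotoxic call of the 7 genes and every spleen result on its side of the threshold, with 3834 to 4348 and 1059 to 1550 genes called. Over 140 alternative values of the cytotoxic slopes of the 7 genes, 138 kept direction and side; the exceptions were Irgm1 with the type I score as covariate (0.17, adjusted p = 0.132 in limma) and in set 2 alone (0.23, adjusted p = 0.231). No value reversed. Genes called on the cytotoxic score were 2407 without the set covariate, 639 in set 2 alone, 2814 with the type I score, 2655 with the macrophage score, 2250 with the T cell score and 1336 with Myc as covariate. Without the set covariate 1695 genes were called on the type I score and 1836 on the macrophage score, and in the joint fit 1141, 328 and 356 on the cytotoxic, type I and macrophage scores, with 2 of 7 on the last. Igtp and Gbp2 were then not called (0.28, adjusted p = 0.0749; 0.50, adjusted p = 0.0691). The joint cytotoxic call of Cxcl10 was lost without the set covariate, in set 1 alone and without D55, D59, D92 and D121, at adjusted p of 0.0746, 0.0912 and 0.106 in limma. Without those 4 lymphomas 1588 genes were called on the joint cytotoxic and 15 on the joint type I score, 0 of the 7 on the latter. Array weights called 2449 genes in the spleen, Igtp as 1 of the 7. Without the filter, 65 genes differed in slope between sets. In set 2 alone permutation called 0 genes and 0 of the 7, with exact adjusted p from 0.166 to 0.294 and 7 lymphomas. Causes of these changes were not tested. No paired analysis was possible because the spleen shares no replicate number with any lymphoma. Dim probe sets (Cxcl9, Cxcl10, Ifng, Iigp1 in most lymphomas) carry little information on their lower range.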
